A study of Mus musculus with 6 samples.

Results

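Genes that restrain the kinase complex mTORC1 in response to stress or amino acid shortage were examined in mouse liver tumour cell lines: the sestrins Sesn1, Sesn2 and Sesn3, REDD1 (Ddit4) and its paralogue REDD2 (Ddit4l), the GATOR1 subunits Depdc5, Nprl2 and Nprl3, and the arginine-sensor paralogue Gatsl2, now called Castor2. These 9 genes were picked by name out of the 53465 genes of the count table, and all 9 were among the 11510 genes with enough reads to be tested. They were read in 2 sets: the 5 stress-induced genes (sestrins and REDD proteins) and the 4 genes of GATOR1 and the arginine sensor.

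RNA sequencing covered 6 primary liver cancer cell lines, 3 with the genotype Myc_Utx (lines 2A, 2B and 2D) and 3 with the genotype Myc_p53 (lines 1, 2 and 3), Utx being another name of Kdm6a, an H3K27 demethylase. All 6 lines came from tumours of C57BL/6 mice that carried a Myc transposon in liver cells after hydrodynamic tail vein injection, with CRISPR/Cas9 directed against Kdm6a in the Myc_Utx lines and against the gene of their label in the Myc_p53 lines. Each line was taken as 1 tumour, since the study calls the lines of a group independent. The 3 Myc_Utx labels all begin with 2, and what that number stands for is not given. No line carried the Myc transposon alone, since the comparison lines bear a disruption of their own. Hence effects of the Kdm6a disruption and of the disruption in the comparison lines cannot be told apart in any difference below, and lower RNA per cell and fewer expressing cells cannot be told apart either.

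mTORC1 drives cell growth when amino acids and growth factors are plentiful. Sestrins bind GATOR2 and thereby release GATOR1, which switches off the Rag GTPases that bring mTORC1 to the lysosome, and SESN2 also senses leucine, whereas CASTOR proteins act in the same way when arginine is scarce. REDD1 acts through the TSC complex, which turns off Rheb, the direct activator of mTORC1. Sestrin and REDD genes are textbook stress genes that are switched on by ATF4, hypoxia, glucocorticoids or FOXO factors, among other inputs. GATOR1 subunits are expressed at a steady level in most cells.

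Promoter sequence is given for the 4 genes that passed the test described below, because these are the genes whose RNA differed between the genotypes. It was taken from RefSeq (GRCm38.p6) within 250 bases upstream of the RefSeq start, without bases that GENCODE M21 places in an exon of the gene, and is written 5′ to 3′ on the strand of the gene. Capitals mark a match to the hypoxia core ACGTG, found in Ddit4. Sesn2 lies at chr4:132510502-132510706, minus strand, Ddit4 at chr10:59951835-59952020, minus strand, Ddit4l at chr3:137623422-137623671, plus strand, and Gatsl2 at chr5:134099498-134099710, plus strand.
Sesn2: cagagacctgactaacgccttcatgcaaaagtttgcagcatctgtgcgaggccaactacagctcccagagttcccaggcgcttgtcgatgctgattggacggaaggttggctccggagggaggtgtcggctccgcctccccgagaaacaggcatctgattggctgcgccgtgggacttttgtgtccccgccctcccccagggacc
Ddit4: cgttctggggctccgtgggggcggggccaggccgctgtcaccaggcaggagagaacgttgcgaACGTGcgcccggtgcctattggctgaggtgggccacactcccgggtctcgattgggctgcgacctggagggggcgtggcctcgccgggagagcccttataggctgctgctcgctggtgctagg
Ddit4l: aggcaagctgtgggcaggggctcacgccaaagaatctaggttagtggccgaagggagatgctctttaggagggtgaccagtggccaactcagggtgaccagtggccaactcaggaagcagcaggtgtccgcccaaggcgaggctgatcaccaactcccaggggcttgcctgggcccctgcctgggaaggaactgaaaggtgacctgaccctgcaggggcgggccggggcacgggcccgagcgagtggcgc
Gatsl2: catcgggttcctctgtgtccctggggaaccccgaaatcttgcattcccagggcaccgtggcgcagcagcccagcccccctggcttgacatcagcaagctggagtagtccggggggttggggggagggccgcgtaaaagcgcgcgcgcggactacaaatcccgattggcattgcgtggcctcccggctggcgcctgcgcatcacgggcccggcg
The Ddit4l stretch sits before the RefSeq start but inside the longer GENCODE gene, in an intron. The core match of Ddit4 lay from base -187 to -183 before the RefSeq start.

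All promoters of the members were searched on both strands in the 250 bases before the RefSeq start for the ATF4 element TGATGNAA, the E-box CACGTG, the core ACGTG that is part of that E-box, the FOXO core TGTTTAC and the cAMP element TGACGTNA. Among 32851 RefSeq promoters, 3.45% held the ATF4 element, 6.02% the E-box, 16.6% the ACGTG core, 3.17% the FOXO core and 2.52% the cAMP element. The core match of Ddit4 was the only match to these 5 patterns in the promoters of the 9 genes. These searches describe letters in a short window, and no binding was measured in these libraries.

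Read counts summed to 4656103 to 6937497 per library, so that 1 unit of CPM (counts scaled to library size, with the TMM method) corresponded to 4.49 to 7.01 reads. Kdm6a RNA, at 44.8 ± 4.72 against 58.8 ± 14.4 CPM, overlapped between the groups and did not pass (log2 fold change -0.39, edgeR adjusted p = 0.243), which leaves the Kdm6a genotype unchecked at the RNA level. In cell lines from Myc;sgKdm6a tumours the study reported mutated Kdm6a DNA and absent Kdm6a protein. Whether those were the lines sequenced here is not stated. Of 12 macrophage markers, 9 were lower in every Myc_Utx than in every Myc_p53 line. Over all genes tested, 20.9% were lower and 21.1% higher in this way. The sum over the list ran from 3.39 to 6.37 CPM in Myc_Utx and from 45.4 to 116 CPM in Myc_p53 lines. Adgre1, C1qc, Ptprc, Aif1 and Tyrobp had no read in any Myc_Utx line. Reads in Myc_p53 lines 1, 2 and 3 were 5, 5 and 11 for Adgre1 and 23, 19 and 50 for C1qc. They were 11, 2 and 9 for Tyrobp, 1, 2 and 3 for Ptprc and 1, 0 and 0 for Aif1. Ptprc and Aif1 were thus near the floor in both groups. Of 7 macrophage markers tested, edgeR called 6 lower and 1 did not pass, against 7.69% of all genes called lower. The largest changes were in Csf1r, C1qc, Lyz2 and C1qa. Summed hepatocyte markers reached 9.97 to 81.9 against 34.3 to 45.5 CPM, with Alb, the main hepatocyte transcript, at 2.85 ± 1.99 and 1.98 ± 0.595 CPM. Thus Alb was low in both groups, and this 1 marker does not test the label liver tumor cells. Biliary markers summed to 554 to 1460 against 168 to 1550 CPM, fibroblast markers to 1950 to 2690 against 42 to 3170 CPM, and endothelial markers to 0.445 to 1.87 against 0.927 to 2.53 CPM. Lower in every Myc_Utx than in every Myc_p53 line were 2 of 11 hepatocyte, 3 of 7 biliary, 1 of 9 fibroblast and 0 of 7 endothelial markers. Higher in every Myc_Utx line was 1 of the hepatocyte markers and 0 of the others. The part of other cell types in the differences below was not tested.

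Sesn2, Ddit4 and Ddit4l were higher in Myc_Utx than in Myc_p53 lines, by 3.22-fold, 3.51-fold and 5.07-fold, whereas Gatsl2 was lower by 2.14-fold. Sesn1, Sesn3 and the GATOR1 subunits Depdc5, Nprl2 and Nprl3 did not pass the test, which was edgeR's quasi-likelihood test with Benjamini-Hochberg adjustment over all genes and a threshold of 0.05. In the stress-induced set 3 of 5 genes were called higher and 0 lower, the median of their log2 fold changes being 1.69, and in the GATOR1 and arginine-sensor set 0 of 4 were higher and 1 lower, at a median of -0.03. Over all genes tested, 6.99% were called higher and 7.69% lower, and the median was -0.01. No member beyond these 4 reached an unadjusted p under 0.05, which 4026 of the 11510 genes tested did. DESeq2 called the same number of members in each set and direction, and over the 14069 genes it tested it called 1269 higher and 1558 lower.

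**Figure D1:**
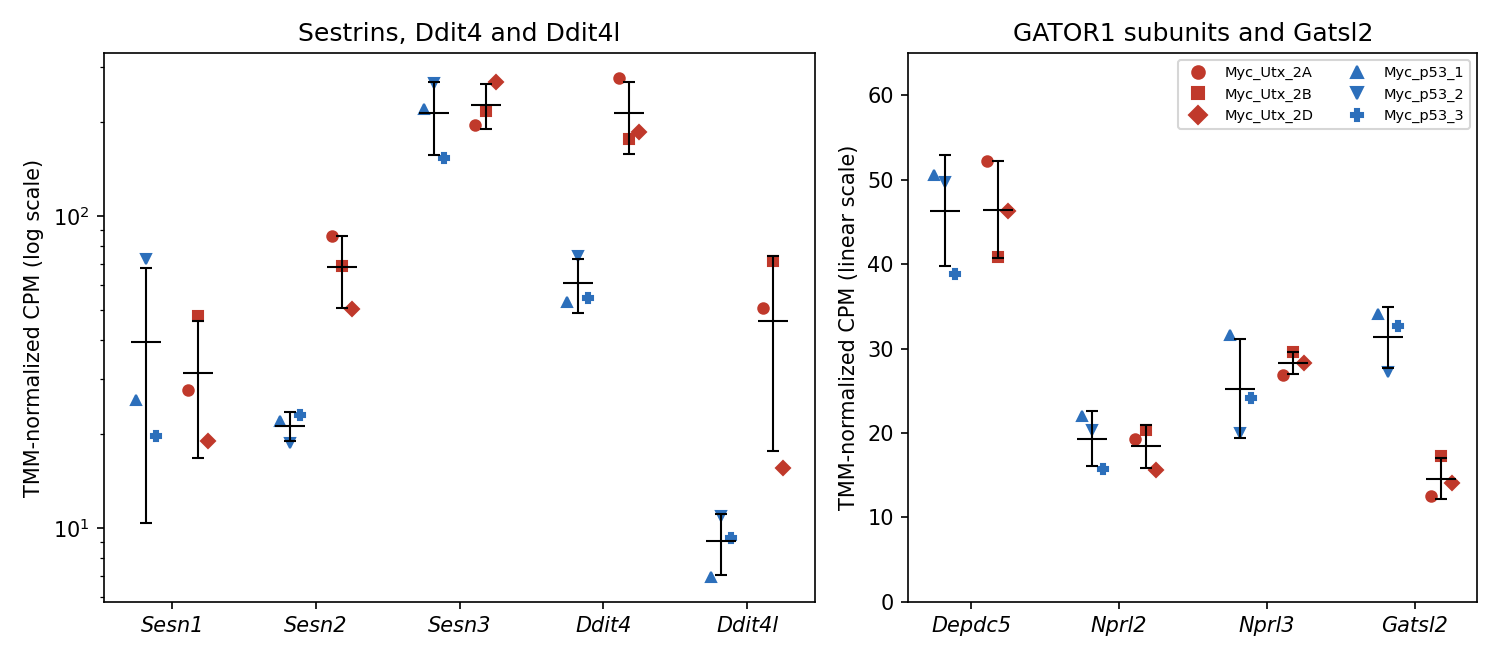
TMM-normalized CPM of the 9 genes in each of the 6 cell lines (left, log scale; right, linear scale), with blue symbols for Myc_p53 and red symbols for Myc_Utx lines, and bars for the mean ± SD of 3 lines. The groups are apart for Sesn2, Ddit4, Ddit4l and Gatsl2, and they overlap for the other 5 genes.

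Sesn2, the leucine-binding sestrin (chr4:132492032-132510501), was measured at 86, 68.9 and 50.3 CPM in Myc_Utx lines 2A, 2B and 2D and at 22, 18.7 and 23 CPM in Myc_p53 lines 1, 2 and 3. Every Myc_Utx line was above every Myc_p53 line, and the lowest Myc_Utx line exceeded the highest Myc_p53 line 2.19-fold. The means were 68.4 ± 17.8 and 21.2 ± 2.22 CPM (SD, n = 3), which gave a log2 fold change of 1.69 with a standard error of 0.23 and a 95% interval of 1.14 to 2.24 (edgeR adjusted p = 0.0164). Raw reads were 431, 368 and 226 in Myc_Utx and 139, 101 and 161 in Myc_p53 lines. With 1 line left out, the call held in 3 of 6 fits, with log2 fold changes of 1.51 to 1.88 and edgeR adjusted p of 0.0231 to 0.0614.

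Ddit4, which encodes REDD1, the TSC-dependent inhibitor induced by hypoxia and glucocorticoids (chr10:59949669-59951834), was measured at 276, 177 and 186 CPM in the Myc_Utx lines and at 53.1, 74.5 and 54.6 CPM in the Myc_p53 lines. The groups were 2.37-fold apart at their nearest lines, and line 2A was the highest of all. The means of 213 ± 55.1 and 60.7 ± 12 CPM (SD, n = 3) corresponded to a log2 fold change of 1.81 with a standard error of 0.23 and a 95% interval of 1.25 to 2.37 (edgeR adjusted p = 0.0154). Per kilobase of exon it was the most abundant member in both groups. Leaving out 1 line kept the call in 2 of 6 fits, with log2 fold changes of 1.597 to 1.988 and edgeR adjusted p of 0.0155 to 0.0614.

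Ddit4l, which encodes the REDD1 paralogue REDD2 (chr3:137621612-137628333), was more uneven. It reached 50.5, 71.5 and 15.6 CPM in Myc_Utx lines 2A, 2B and 2D and 6.95, 10.9 and 9.27 CPM in Myc_p53 lines 1, 2 and 3. Line 2D was close to the Myc_p53 lines, only 1.43-fold above the highest of them, and the coefficient of variation was 61.6% in Myc_Utx against 22.1% in Myc_p53 lines. With means of 45.9 ± 28.3 and 9.05 ± 2 CPM (SD, n = 3), the log2 fold change was 2.34 with a standard error of 0.55 and a 95% interval of 1.02 to 3.66 (edgeR adjusted p = 0.0402). When single lines were dropped, this call held once in 6 fits (edgeR adjusted p 0.0363 to 0.114), and it was lost when transcript length and GC content were included as offsets (log2 fold change 2.28, edgeR adjusted p = 0.05001).

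Sesn1 and Sesn3 did not differ beyond their spread. Sesn1, a sestrin that acts on GATOR2 like Sesn2 (chr10:41809935-41908424), stood at 27.7, 47.6 and 18.9 CPM in Myc_Utx lines 2A, 2B and 2D and at 25.6, 72.5 and 19.7 CPM in Myc_p53 lines 1, 2 and 3. Line 2 of Myc_p53 and line 2B were high within their groups, the groups overlapped, and the coefficient of variation was 46.7% and 73.7%. The log2 fold change was -0.32 with a 95% interval of -1.69 to 1.06 (edgeR adjusted p = 0.721), and it turned to 0.48 (adjusted p = 0.442) without Myc_p53 line 2. Sesn3, the sestrin under FOXO control (chr9:14275067-14333101), was at 195, 217 and 269 CPM in Myc_Utx and at 219, 266 and 154 CPM in Myc_p53 lines. Its log2 fold change was 0.09 with a 95% interval of -0.45 to 0.64 (edgeR adjusted p = 0.791), an interval that does not reach the fold of Sesn2 or Ddit4.

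Gatsl2 (chr5:134099711-134144343), the paralogue of the arginine sensor that inhibits GATOR2 when arginine is absent, moved against the stress-induced genes. It was measured at 12.6, 17.2 and 14 CPM in Myc_Utx lines 2A, 2B and 2D and at 34.1, 27.2 and 32.7 CPM in Myc_p53 lines 1, 2 and 3. Every Myc_Utx line was below every Myc_p53 line, by at least 1.58-fold between the nearest lines. The means were 14.6 ± 2.38 and 31.3 ± 3.62 CPM (SD, n = 3), and the log2 fold change was -1.10 with a standard error of 0.20 and a 95% interval of -1.58 to -0.62 (edgeR adjusted p = 0.0227). Raw reads ran from 63 to 92 in Myc_Utx and from 147 to 229 in Myc_p53 lines. Macrophage markers were lower in the same lines, as given above, and their part in this difference was not tested. With 1 line left out the call held in 2 of 6 fits (edgeR adjusted p 0.0241 to 0.0915).

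The 3 GATOR1 subunits showed no difference that passed. Depdc5 (chr5:32863701-32994236), the subunit that docks on the Rag GTPases, was at 52.3, 40.8 and 46.3 CPM in Myc_Utx and at 50.6, 49.7 and 38.8 CPM in Myc_p53 lines. Nprl2 (chr9:107542226-107545706), which carries the GTPase-activating residue, was at 19.3, 20.4 and 15.6 CPM against 22, 20.4 and 15.7 CPM. The groups overlapped for both, with log2 fold changes of 0.00 (95% interval -0.41 to 0.42) and -0.07 (95% interval -0.59 to 0.45). Nprl3 (chr11:32225628-32267707), the partner of Nprl2, was at 26.9, 29.6 and 28.3 CPM against 31.6, 20 and 24.1 CPM, with a log2 fold change of 0.16 (95% interval -0.33 to 0.66). Adjusted p by edgeR was 0.988, 0.847 and 0.61 for the 3 genes. The value of Nprl3 is uncertain, since 1340 of its 7572 exon bases (17.7%) overlap Mpg on the opposite strand and the strand setting of the counting is not given in the sources used here.

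Groups that did not overlap were found for 3 of 9 members upward and 1 of 9 downward, against 21.1% of all genes upward and 20.9% downward. For each of these 4 genes the two-sided exact permutation test of the CPM values gave p = 0.1, which is the smallest value that 3 lines against 3 allow.

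**Figure D2:**
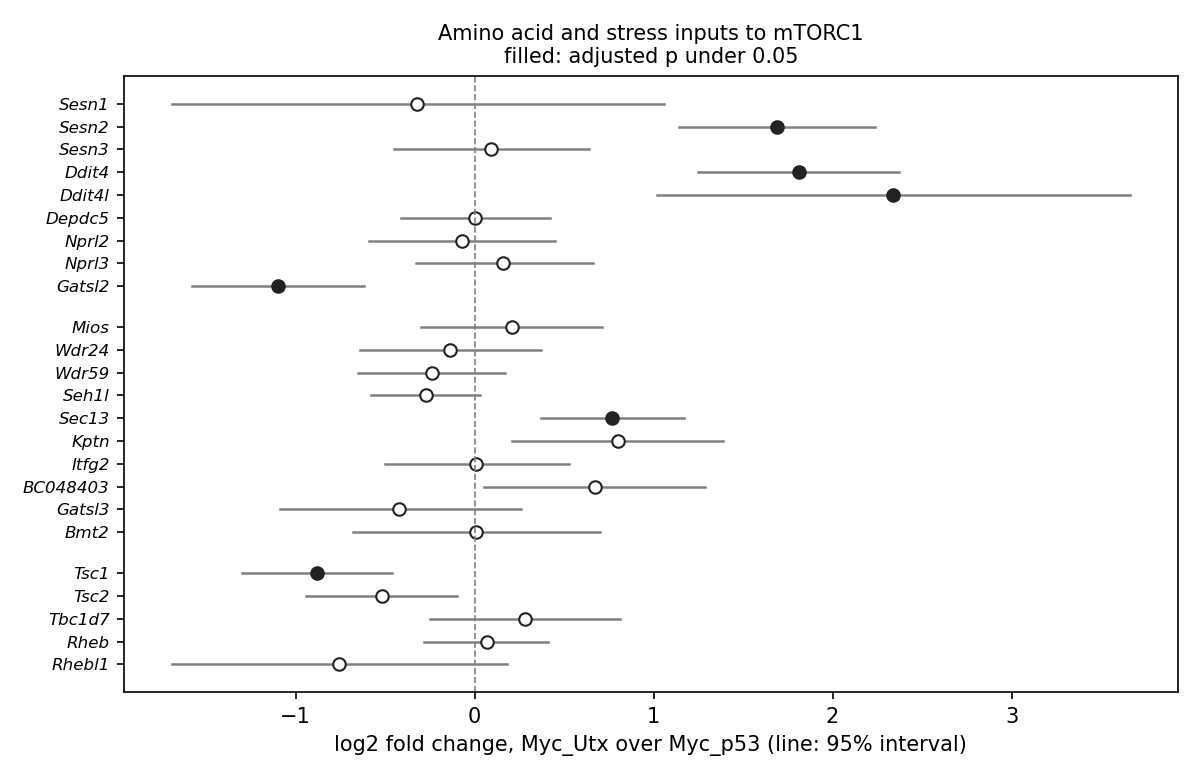
Log2 fold change of Myc_Utx over Myc_p53 lines for the 9 members (top), 10 GATOR2, KICSTOR and amino acid sensor genes (middle) and 5 TSC and Rheb genes (bottom), with 95% intervals as lines and filled points for an edgeR adjusted p under 0.05. Sesn2, Ddit4, Ddit4l and Sec13 are filled on the right, Gatsl2 and Tsc1 on the left.

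To compare the levels of different genes, CPM was divided by the length of all exons in kilobases. In Myc_Utx lines the order was Ddit4 (121 ± 31.4 CPM per kb), Sesn2 (19.7 ± 5.13), Ddit4l (15.7 ± 9.69), Sesn3 (14.9 ± 2.47), Nprl2 (9.16 ± 1.26), Sesn1 (7.89 ± 3.68), Depdc5 (3.95 ± 0.486), Nprl3 (3.73 ± 0.176) and Gatsl2 (1.93 ± 0.315 CPM per kb). Sesn2, Ddit4l and Sesn3 overlapped in that order, as did Nprl2 with Sesn1 and Depdc5 with Nprl3. In Myc_p53 lines Ddit4 was again first (34.6 ± 6.81 CPM per kb), followed by Sesn3 (13.9 ± 3.69), Sesn1 (9.86 ± 7.26), Nprl2 (9.61 ± 1.62), Sesn2 (6.1 ± 0.638), Gatsl2 (4.15 ± 0.479), Depdc5 (3.94 ± 0.557), Nprl3 (3.33 ± 0.776) and Ddit4l (3.1 ± 0.686 CPM per kb). Here Sesn3 overlapped Sesn1, Sesn1 overlapped Nprl2, and the last 4 genes overlapped from one to the next. By this length Ddit4l shifted most in rank, from place 3 to place 9. Per kb of the longest annotated transcript the order of the means differed. In Myc_Utx lines Sesn3 (24.9 CPM per kb) then stood above Sesn2 (19.7) and Ddit4l (16.8). In Myc_p53 lines Nprl3 (7.15 CPM per kb) stood above Sesn2 (6.1).

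The make-up of the sestrin pool was then compared line by line. Sesn2 held 55.6, 43.1 and 39.3% of the summed sestrin level per kb in Myc_Utx lines 2A, 2B and 2D and 23.3, 13.1 and 30.6% in Myc_p53 lines 1, 2 and 3, so the groups did not overlap. The mean shares were 46.0 ± 8.52% and 22.3 ± 8.76% (SD, n = 3; exact permutation p = 0.1, and 0.35 after adjustment over 7 shares and ratios). Sesn1 held 18.2 ± 6.89% against 30.3 ± 12.2% and Sesn3 35.8 ± 10.4% against 47.3 ± 5.32%, with an exact permutation p of 0.3 for each. Which sestrin led in Myc_Utx lines depended on the length used: without division by length Sesn3 held 69.3% and Sesn2 21.1%, and per kb of the longest annotated transcript Sesn3 held 47.6% and Sesn2 37.1%. The share of Sesn2 was higher in Myc_Utx than in Myc_p53 lines on each of these scales, at 8.39% and 16.7% in the Myc_p53 lines on the last 2.

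**Figure D3:**
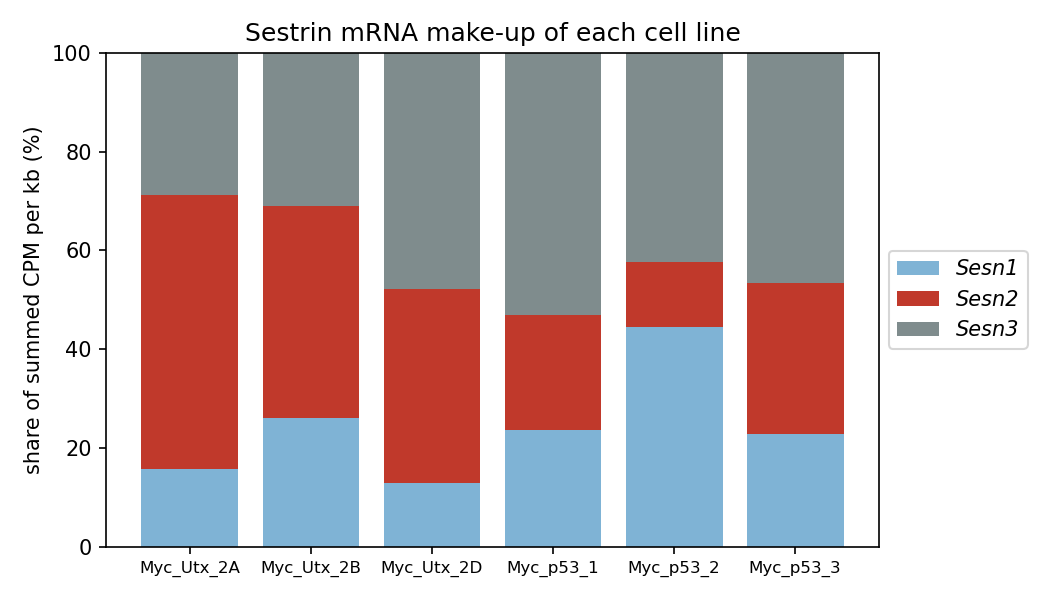
Share of Sesn1, Sesn2 and Sesn3 in the summed sestrin level (CPM per kb of exon, in percent) of each cell line, stacked to 100%. The red Sesn2 block spans 39.3 to 55.6% in the Myc_Utx lines and 13.1 to 30.6% in the Myc_p53 lines.

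Summed over the 3 sestrins, the level was 327 ± 15.6 CPM in Myc_Utx and 273 ± 80.5 CPM in Myc_p53 lines, with overlap between the groups (exact permutation p = 0.4, n = 3). The 5 stress-induced genes together reached 636, 582 and 540 CPM in Myc_Utx lines 2A, 2B and 2D against 327, 442 and 260 CPM in Myc_p53 lines 1, 2 and 3, without overlap. The log2 ratio of Sesn2 to Sesn1 was 1.19 ± 0.58 against -0.65 ± 1.15 (exact permutation p = 0.1, n = 3). Ratios of Ddit4 to Ddit4l (2.45 ± 1.14 against 2.75 ± 0.19), of Nprl2 to Depdc5 (-1.33 ± 0.30 against -1.26 ± 0.05) and of Nprl3 to Depdc5 (-0.71 ± 0.25 against -0.89 ± 0.36) overlapped between the groups, with exact permutation p of 0.7, 0.8 and 0.7.

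The partners of these genes in amino acid sensing were counted next. Of 10 genes of GATOR2, KICSTOR and the other sensors, edgeR and DESeq2 each called 1 higher and 0 lower. Over all genes tested, edgeR called 6.99% higher and 7.69% lower. At an unadjusted p under 0.05 by edgeR 3 were higher and 0 lower, against 4026 of all 11510 genes in either direction. The median log2 fold change was 0.01. Sec13, a GATOR2 subunit that is also part of the COPII coat and the nuclear pore, was higher, at 142 ± 27.1 against 83.4 ± 6.35 CPM (log2 fold change 0.77, edgeR adjusted p = 0.0331). Log2 fold changes of the other GATOR2 subunits were 0.21 for Mios, -0.14 for Wdr24, -0.24 for Wdr59 and -0.27 for Seh1l, and none passed. Of the KICSTOR genes, which tether GATOR1 to the lysosome, Kptn was at 0.80 (edgeR adjusted p = 0.0728), BC048403 at 0.67 (0.124) and Itfg2 at 0.01 (0.971). Gatsl3, the older name of the arginine sensor Castor1, was at -0.42 (adjusted p = 0.329) and Bmt2, the S-adenosylmethionine sensor, at 0.01 (0.982).

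The target of REDD1 was measured through 5 TSC and Rheb genes, of which edgeR and DESeq2 each called 0 higher and 1 lower. The edgeR shares over all genes were 6.99% higher and 7.69% lower. At an unadjusted p under 0.05 by edgeR 2 were lower, against 4026 of all 11510 genes in either direction. Their median was -0.52. Tsc1, the scaffold of the TSC complex, was at 44.2 ± 1.69 CPM in Myc_Utx and 81.6 ± 16.7 CPM in Myc_p53 lines (log2 fold change -0.88, edgeR adjusted p = 0.0275). Tsc2, its GTPase-activating subunit, was at 83.2 ± 5.71 against 119 ± 24.8 CPM (log2 fold change -0.52, adjusted p = 0.0902). Tbc1d7, Rheb and Rhebl1 were at log2 fold changes of 0.28, 0.07 and -0.76 and did not pass. So the REDD genes and Tsc1 differed in opposite directions between the same lines.

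Genes known to answer some of the factors that act on sestrin and REDD genes were counted in 4 lists. These lists describe the lines in which the members differ and do not cover every such factor. Of 28 ATF4 response genes, edgeR called 0, with 5 higher and 2 lower at an unadjusted p under 0.05, DESeq2 called 2 higher and 1 lower, and the median was 0.10. Of 8 glucocorticoid response genes tested, edgeR called 0, with 0 higher and 2 lower at an unadjusted p under 0.05. DESeq2 called 1 lower of 9 it tested, and the median by edgeR was -0.41. Of 15 hypoxia response genes tested, edgeR called 1 higher (Ldha, lactate dehydrogenase, 1.19) and 1 lower (Ndrg1, -1.24), with 4 higher and 2 lower at an unadjusted p under 0.05. DESeq2 called 3 higher and 2 lower of 16 it tested, and the median by edgeR was 0.41. Of 14 FOXO genes tested, 0 were higher and 3 lower: Irs2, an insulin receptor adaptor (-1.69), Ccng2, a cyclin that restrains the cycle (-1.39), and catalase, Cat (-1.04). At an unadjusted p under 0.05, 0 FOXO genes were higher and 5 lower, and the median was -0.62. DESeq2 called 0 higher and 4 lower of 15 FOXO genes. Over all genes, edgeR called 6.99% higher and 7.69% lower, and 4026 of 11510 had an unadjusted p under 0.05 in either direction. DESeq2 called 1269 higher and 1558 lower of 14069 genes. Whether any of these factors acted on the members was not tested.

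**Figure D4:**
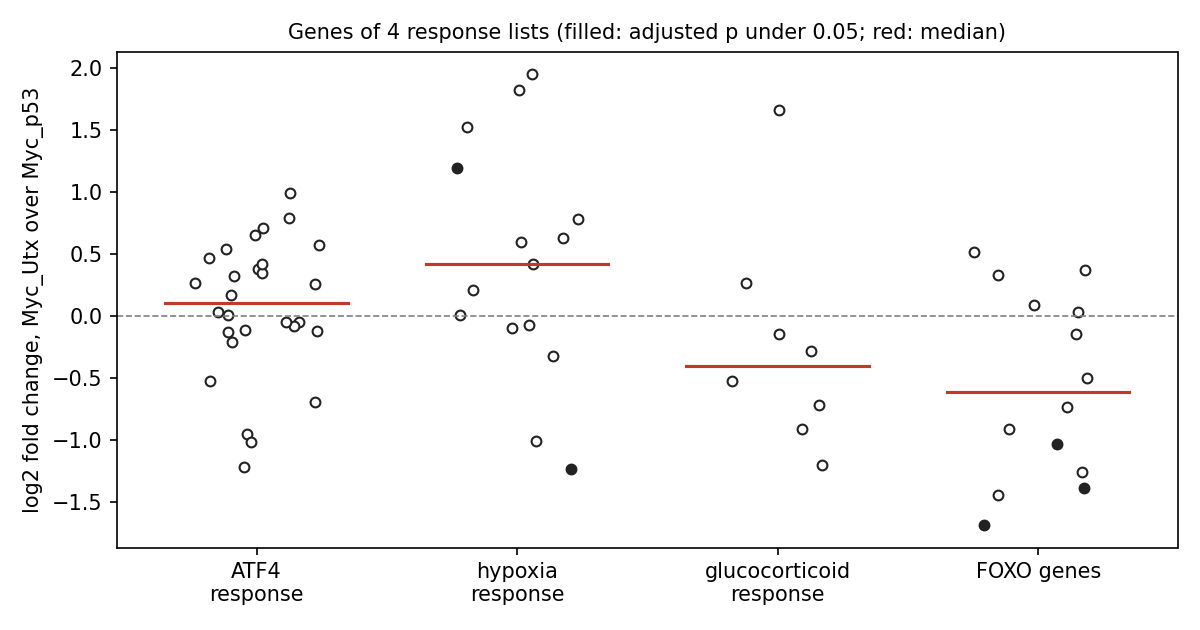
Log2 fold change of Myc_Utx over Myc_p53 lines for each tested gene of 4 response lists, with filled points for an edgeR adjusted p under 0.05, red bars for the medians and horizontal jitter for legibility. The ATF4 list is centred at 0.10 and the FOXO list at -0.62.

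Finally, the genes most like each of the 4 differing members across the 6 lines were sought among 9484 genes, by the root mean square difference of log2 CPM after centring. For Sesn2 they were Exoc4, an exocyst subunit (0.14), Btg2, an antiproliferative gene (0.16), and Ei24 (0.21). For Ddit4 they were Scmh1, a Polycomb-related gene (0.18), Ercc5, a DNA repair nuclease (0.20), and Polr2l, an RNA polymerase subunit (0.20). Ddit4l had less close neighbours, Gorab (0.23), Fxyd5 (0.41) and Mdm2, a ubiquitin ligase (0.47). Gatsl2 had the closest, Tns3, a focal adhesion gene (0.06), Rnf44 (0.09) and Mga, a MYC-network factor (0.11). Tns3 stood at 112, 146 and 115 CPM in Myc_Utx and at 307, 219 and 289 CPM in Myc_p53 lines. The 6 lines followed the same order as for Gatsl2, but Tns3 was picked for that likeness.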

How the data were processed

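RNA was sequenced from 6 primary mouse liver tumour cell lines, and the table that the authors deposited holds unnormalized read counts for each Ensembl gene beside its annotation. The submitters' processing notes name Trimmomatic 0.36, STAR 2.5.3a, featureCounts 1.6.3, DESeq2 1.20.0 and the build GRCm38/mm10, whereas the methods of the study name a human build, HTSeq and Myc;sgMll3 lines for this assay. Genotypes here follow the labels. Deposited coordinates equalled GENCODE M21 for 96.0% of genes.

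Genes were kept by filterByExpr (minimum count 10), scaled with TMM and compared with the quasi-likelihood test of edgeR 4.0.16 in R 4.3.3, with Benjamini-Hochberg adjustment over 11510 genes and a threshold of 0.05. The common dispersion was 0.112, a biological coefficient of variation of 33.4%. Shares, ratios and sums were compared with two-sided exact permutation tests. Since each line was taken as 1 tumour, p-values measure the spread between these lines. The edgeR comparison was tested on simulated data. Of 199 genes simulated at a log2 change of 2, it recovered 75.9%, and 6.21% of its calls were false. That change is larger in size than those of Sesn2, Ddit4 and Gatsl2, and smaller changes were not simulated. Depth limits precision through 4.49 to 7.01 reads per CPM.

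Members and lists were chosen with earlier results of these data known. Named are all members, the listed GATOR2, KICSTOR, sensor, TSC and Rheb genes, Kdm6a, up to 4 called genes per direction of each other list, and the 3 genes most like each called member among those with a mean count of at least 50. Items withheld for other uses are not reported here. Mpg, Alb and the macrophage markers without reads were named after their values were seen. Alternatives were no filter, 10 counts in every line, DESeq2 size factors, total counts only and offsets for length and GC content (MASS 7.3.60.0.1, splines with 5 degrees of freedom). Further ones were DESeq2 1.42.0, other length scales for sestrin shares and levels per kb, and each line left out in turn. The scale of the longest transcript was chosen after seeing the data.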

Additional observations from a re-analysis of the deposited data

How the results depend on the processing

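With all 6 lines, 95 of the recomputed values stayed the same, 14 moved, 4 changed sign and 1 lost its call. With a line left out, 90 stayed the same, 26 moved, 12 changed sign and 16 lost their call. The same meant an unchanged direction and call for a gene. For counts it meant a value within a set fold, and for shares, ratios and medians a shift smaller than the SD between lines. Sesn2, Ddit4 and Gatsl2 passed, in the same direction, under each of the 6 alternatives with all lines. Ddit4l was the exception: with length and GC offsets its log2 fold change was 2.278 at an edgeR adjusted p of 0.05001. Removing the filter moved the median of all genes to -0.235 on the log2 scale, since many more low genes were tested. No paired analysis was made, because the labels give no pairing between lines of different genotypes.

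Depdc5, near 0, turned to -0.03808 with 10 counts in every line, to -0.0144 with DESeq2 size factors and to -0.06141 with total counts, and the median of the GATOR1 and arginine-sensor genes turned to 0.04718 with the offsets. With the offsets, log2 fold changes were 0.3158 for Depdc5, 0.3615 for Nprl3, -0.2215 for Nprl2, 0.4128 for Sesn3 and -0.2831 for Sesn1, and none of these passed. Gatsl2 was at -0.8989 with them and still passed. Of the other listed genes, 2 were called higher and 5 lower in the report, against 6 and 9 with DESeq2. Over all genes DESeq2 called 1269 higher and 1558 lower, and the offsets left 584 lower. Without division by length the Myc_Utx shares of Sesn1, Sesn2 and Sesn3 were 9.607, 21.12 and 69.28% and the Myc_p53 shares 13.31, 8.391 and 78.3%. Per kb of the longest transcript, Sesn2 and Sesn3 held 37.08 and 47.58% in Myc_Utx lines and Sesn3 59.36% in Myc_p53 lines.

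With a line left out, genes called higher over the whole table ranged from 3 to 836 and lower from 1 to 1118, the lowest of each without line 2A and the highest of each without Myc_p53 line 2. Members called higher ranged from 0 (without 2A, 2B or Myc_p53 line 3) to 2, and lower from 0 to 1, with 0 without 2A, 2B, 2D or Myc_p53 line 3. Of the other listed genes, 0 to 3 were called higher and 0 to 9 lower. Log2 fold changes ranged from 1.509 to 1.884 (Sesn2), 1.597 to 1.988 (Ddit4), 1.883 to 2.769 (Ddit4l) and -1.22 to -0.9831 (Gatsl2). Signs turned for Sesn1 (0.4772 without Myc_p53 line 2), Sesn3 (-0.02728 without 2D and -0.09953 without Myc_p53 line 3), Depdc5 (-0.07012 without 2A and -0.1135 without Myc_p53 line 3) and Nprl2 (0.05761 without 2D and 0.02788 without Myc_p53 line 1). Ranges were -0.7318 to 0.4772 (Sesn1), -0.09953 to 0.2842 (Sesn3), -0.1135 to 0.1057 (Depdc5) and -0.2025 to 0.05761 (Nprl2). The GATOR1 and arginine-sensor median ranged from -0.158 to 0.04646, with 0.04077 without 2D. The log2 ratio differences turned to 0.2625 for Ddit4 to Ddit4l (without 2B, from -0.8747 at the lowest), 0.04785 for Nprl2 to Depdc5 (without 2D, from -0.2377) and -0.02859 for Nprl3 to Depdc5 (without Myc_p53 line 2, up to 0.3039). The cause of these changes was not tested. With 3 lines a group, the permutation tests cannot reach 0.05, and depth was lowest for Ddit4l in Myc_p53 lines, with 44 to 65 reads a line.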
